A study of Mus musculus with 4 samples.

Results

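The genes described here encode secreted or secreted-surface defence proteins of mucosal epithelium: Defb1, Ltf, Pigr, Lyz1, Camp, Chi3l1, Reg3g and Lpo. They were measured in mouse mammary tumors that formed with or without St6gal1, the enzyme that adds alpha2-6-linked sialic acid to N-glycans. Members were taken as every probe set whose annotated gene symbol equals one of the 8 names. That gave 11 of the 45037 non-control probe sets, for 7 genes, because Chi3l1 is annotated under its current symbol Chil1. Its 1 probe set was added through that synonym, so 12 probe sets of 8 genes are described, and no probe set of several genes held any of them. The genes were selected on their null and wild-type signals on these arrays, which were already known when they were named. The signals and ratios of the members between genotypes are therefore given as a description, with no test.

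The comparison was between 2 St6gal1-null tumor pools and 2 pools from wild-type littermates. Each pool mixed 3 tumors from 3 animals and was hybridised to 1 Affymetrix Mouse Genome 430 2.0 array, so animals within a pool could not be separated. All animals were C57BL/6 females of 110 days, taken 14 days after tumor onset, and all carried the polyoma middle T oncogene (PyV-mT), whose promoter the sources used here do not name. According to the design text the pools were compared as couples, each of a null and a wild-type pool, which are called set 1 and set 2 below.

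Mucosal surfaces and milk ducts are protected by proteins that epithelial cells release into the lumen. Small cationic peptides and lysozyme damage bacterial envelopes, lactoferrin withholds iron, lactoperoxidase makes oxidants from hydrogen peroxide, and lectins of the Reg family bind bacterial cell walls. The polymeric immunoglobulin receptor carries IgA and IgM from the tissue side across the epithelial cell, and is cleaved to release them as secretory antibody. Several of the same proteins, lactoferrin and cathelicidin among them, are also stored in neutrophil granules.

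Trimmed mean signals were nearly equal on the 4 arrays, from 2488.4 to 2489.5, and medians lay between 588.2 and 618.7. Probe sets of Y-linked genes, which have no target in female animals, read up to 585.1 (15 probe sets), and that value is used below as the unspecific level. The targeted gene did not separate the groups: its brighter probe set read 2336.8 and 3642.1 in null pools, against 2330.0 and 2796.2 in wild-type pools (log2 0.19 ± 0.16 SE, limma adjusted p = 0.554). The deleted stretch of the gene is not described in the sources, so this probe set may lie outside it and the group names rest on the labels. All 9 luminal epithelial markers examined read above the unspecific level on every array, among them Krt8 and Krt18. The 3'/5' signal ratio of the Gapdh control, which rises as RNA is degraded, was 0.873 and 2.13 in null pools of sets 1 and 2, against 0.869 and 1.57 in wild-type pools.

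Members fell into 2 ranges of signal. The 6 probe sets in the upper range, of Ltf, Pigr, Lyz1 and Chil1, read above the unspecific level on all 4 arrays. Those of Camp and Reg3g read at or below it on all 4, and so could not show whether the transcript was there. Defb1 read above the level in wild-type pools. Signal above the level in both pools of at least 1 genotype was thus found for 5 of the 8 genes. A reservation is that the bright Lyz1 probe sets may also read Lyz2. Lpo read above the level only in the null pool of set 2, at 784.3. Bulk pools do not show which cells a transcript came from, so an epithelial source was not tested. Of the 12 probe sets, 8 had a mean at or above the median of all probe sets (590.6) and entered the fit over all genes. Just outside that filter lay Lpo with a mean of 453.0 and the dim Lyz1 probe set with 401.4, and just inside it the dimmer Defb1 probe set with 858.5. In bulk pools such as these, fewer cells of a type and less RNA per cell cannot be told apart.

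**Figure D1:**
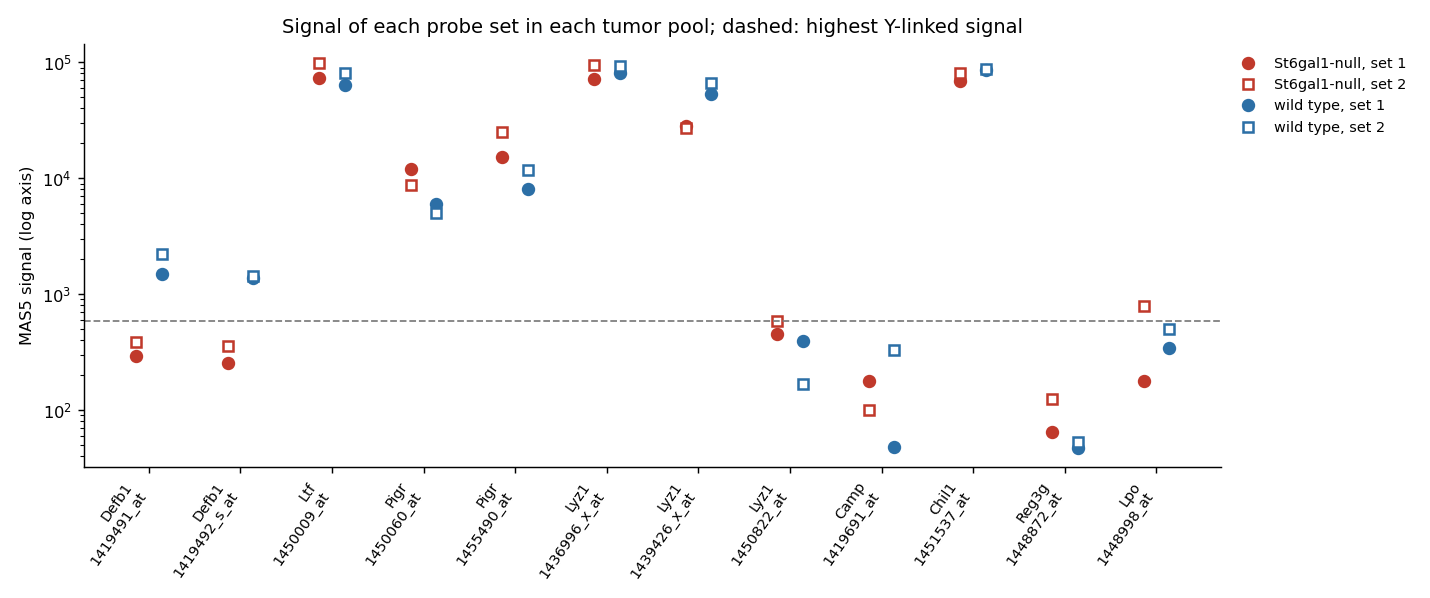
MAS5 signal (log axis) of the 12 probe sets in each pool, with null pools left of wild-type pools, set 1 as filled circles and set 2 as open squares; the dashed line is the highest Y-linked signal, 585.1. Defb1 lies below the line in both null pools and above it in both wild-type pools, while Camp and Reg3g lie below it on every array.

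Defb1, a beta-defensin made constitutively by epithelia, passed the filter on both probe sets only through its wild-type pools. Its null signals all lay below the filter value of 590.6, so its gap is not ranked among the members. Probe set 1419491_at read 293.4 and 386.2 in null pools, against 1505.4 and 2218.0 in wild-type pools. The second, 1419492_s_at, read 255.5 and 359.8 in null pools, against 1391.7 and 1426.9 in wild-type pools. Both null pools were low and both wild-type pools high on each probe set, with no overlap. Log2 ratios of null over wild type were -2.20 in set 1 and -2.39 in set 2 for the first probe set, and -2.26 and -1.87 for the second. Since both null signals lie within the unspecific level, the fold is a bound: wild type was at least 2.98-fold higher than that level by the first probe set and at least 2.31-fold by the second, on the mean of log2 signals.

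No further beta-defensin could be compared. Of 17 further genes for defensins and small cationic peptides on the array, 16 read at or below the unspecific level on every array and 0 passed the filter. Hamp, which encodes the iron hormone hepcidin, was the exception. It read 648.1 and 655.4 in null pools, slightly above that level, and 530.9 and 283.6 in wild-type pools, below it.

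Camp, the mouse cathelicidin, read 177.7 and 100.3 in null pools and 47.9 and 329.4 in wild-type pools. The order of the genotypes was opposite in the 2 sets and no value left the unspecific level. Its known storage site is the neutrophil granule, and neutrophil genes gave a mixed picture: of 16 on the array, 8 read at or below that level on all arrays (Elane, Mpo, Ngp and Cxcr2 among them) and 5 above it on all arrays. Those 5 were Prtn3, Csf3r, Pglyrp1, S100a8 and Lcn2. Reg3g, a C-type lectin that binds peptidoglycan of Gram-positive bacteria, read 65.2 and 124.5 in null pools and 47.1 and 52.6 in wild-type pools, which likewise shows nothing above the unspecific level.

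Reg3b, a lectin of the same family, was bright enough to test. It read 1137.1 and 1262.8 in null pools and 788.9 and 647.4 in wild-type pools, a log2 ratio of 0.71 ± 0.28 (SE) that did not pass (limma adjusted p = 0.162). It was the only 1 of 6 further Reg genes past the filter.

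Pigr, the polymeric immunoglobulin receptor, was higher in the null pools on both of its probe sets. Probe set 1450060_at read 11902.0 and 8783.2 in null pools, against 6024.2 and 4964.3 in wild-type pools. By 1455490_at the signals were 15375.0 and 25273.6 in null pools, against 8119.2 and 11759.9 in wild-type pools. Genotypes did not overlap on either probe set, and each null pool was about as far above the wild-type pool of its set on the one as on the other. Ratios of null over wild type were 1.98 in set 1 and 1.77 in set 2 for 1450060_at, and 1.89 and 2.15 for 1455490_at. Mean log2 ratios were 0.90 ± 0.11 and 1.01 ± 0.13 (SD over the 2 sets).

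The IgA chains that the receptor carries went the other way. Igha, the heavy chain of IgA, read 3251.9 and 3822.5 in null pools, against 7153.6 and 10449.2 in wild-type pools, and fell by 1.28 on the log2 scale (SE 0.12, limma adjusted p = 7.64e-06). Its 2 other tested probe sets had log2 ratios of -1.40 and -0.96. Jchain, which links IgA and IgM into polymers that the receptor can bind, read 869.0 and 1190.1 in null pools, against 1486.9 and 2235.8 in wild-type pools, and fell by 0.82 (SE 0.22, adjusted p = 0.0380, and 0.0538 after cyclic loess normalization). Ighm, the heavy chain of IgM, rose by 0.59 on the log2 scale (SE 0.14, adjusted p = 0.0152), with 3 other tested probe sets from 0.01 to 1.14. Immunoglobulin genes form a family of similar sequences, so their probe sets may read more than 1 member.

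**Figure D2:**
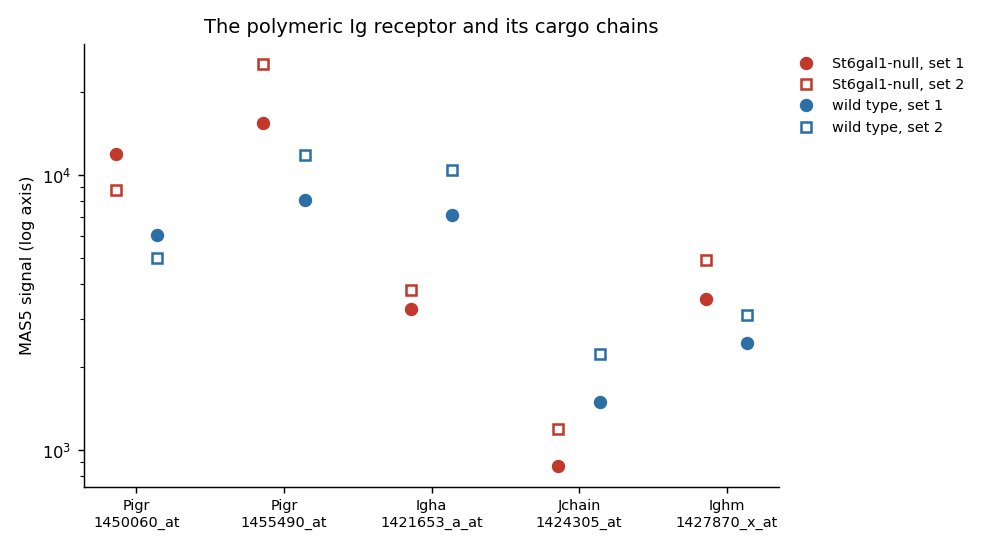
MAS5 signal (log axis) of both Pigr probe sets and of Igha, Jchain and Ighm in each pool, null left of wild type, set 1 as filled circles and set 2 as open squares. Null pools lie above wild-type pools for Pigr and Ighm and below them for Igha and Jchain, with no overlap in any of the 5.

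Of the 15 genes listed for IgA transport and plasma cells, 8 were tested, of which 1 rose (Ighm) and 3 fell (Igha, Jchain and Sdc1, a heparan sulphate proteoglycan of plasma cells and epithelium). Over all 22519 probe sets tested 7.30% were called at limma adjusted p under 0.05, 4.05% higher and 3.25% lower in null pools. These shares are the background for the counts of all lists below too. The lists were chosen with earlier results of these data known, so nothing is read from their counts against these shares. Sdc1 fell by 0.33 on its brightest probe set (adjusted p = 0.0330, and 0.0572 with dim probe sets kept), while its 3 other probe sets ranged from -0.10 to 0.07. Of the 15 genes, 5 read at or below the unspecific level on all arrays, among them Tnfrsf17 and Irf4 of plasma cells, and 8 above it on all arrays. Pou2af1, a B cell coactivator, was among these 8, at 1414.1 and 1616.2 in null pools and 1607.7 and 2216.2 in wild-type pools, and did not pass (log2 -0.31 ± 0.20, adjusted p = 0.418). Mzb1, a chaperone of antibody-secreting cells, read above the level only in set 2, at 668.3 in null tumors against 687.7 in wild-type tumors. Fcgrt, the neonatal receptor that carries IgG, had a log2 ratio of 0.32 ± 0.14 and did not pass (adjusted p = 0.204). The median of the list was -0.24, against -0.03 over all probe sets tested.

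The sequence before the start of Pigr is shown because both probe sets place this gene above wild type and because 1 searched motif lies in it. It covers the 250 bases before the annotated start on the plus strand, chr1:130826434-130826683 (RefSeq, GRCm38.p6), with an E-box in capitals at position -71.
Pigr: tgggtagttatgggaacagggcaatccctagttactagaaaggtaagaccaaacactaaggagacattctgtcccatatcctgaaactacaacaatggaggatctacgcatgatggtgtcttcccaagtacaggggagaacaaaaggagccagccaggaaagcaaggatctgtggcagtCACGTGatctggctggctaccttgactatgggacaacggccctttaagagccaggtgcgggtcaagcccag

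A set of 4 motifs was searched on both strands in the 7 members with a promoter in that table. The E-box CACGTG was found in Pigr alone of the 7, and in 6.02% of all 32851 promoters of the same length. TATAAA was found in Reg3g at positions -27 and -161 and in 12.4% of all promoters. The STAT-type motif TTCNNNGAA and the interferon-type motif (a pair of GAAA runs with 2 bases of any kind between them), which 7.02% and 2.98% of promoters hold, had no match in these windows. Overlapping matches were counted, and a match describes letters only.

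Lyz1, which encodes the lysozyme of Paneth cells and other epithelia, gave 3 different answers on its 3 probe sets. The brightest, 1436996_x_at, read 72133.7 and 95422.4 in null pools and 80213.0 and 93167.1 in wild-type pools, so the genotypes overlapped. Probe set 1439426_x_at read 28444.2 and 26877.1 in null pools, against 53557.4 and 65954.7 in wild-type pools, with no overlap. On the third, 1450822_at, signals were 453.6 and 586.9 in null pools and 396.7 and 168.6 in wild-type pools, of which 1 array barely exceeded the unspecific level. Mean log2 ratios were -0.06, -1.10 and 0.87 in that order, and ratios of null over wild type for the middle one were 0.531 in set 1 and 0.408 in set 2.

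Within an array, 1439426_x_at over 1436996_x_at stood at 0.394 and 0.282 in null pools, against 0.668 and 0.708 in wild-type pools. The suffix _x_at marks probe sets whose probes can also bind other transcripts. Lyz2, the lysozyme of macrophages and the neighbour of Lyz1, read 37524.1 and 50631.5 in null pools and 38779.9 and 55564.3 in wild-type pools, with a log2 ratio of -0.09 ± 0.08 (SE, limma adjusted p = 0.605). No direction is given for Lyz1 as a gene, since its probe sets disagree and the signals of the pair cannot be told apart here.

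The bases before the start of both lysozyme genes are shown for how alike the pair is. Each line holds the 120 bases before the annotated start on the minus strand, chr10:117292869-117292988 for Lyz1 and chr10:117282273-117282392 for Lyz2 (RefSeq, GRCm38.p6). Capitals mark the 9 positions that differ when both are laid from the start without gaps.
Lyz1: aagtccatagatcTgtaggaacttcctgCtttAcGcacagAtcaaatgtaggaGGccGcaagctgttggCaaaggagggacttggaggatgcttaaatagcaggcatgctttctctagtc
Lyz2: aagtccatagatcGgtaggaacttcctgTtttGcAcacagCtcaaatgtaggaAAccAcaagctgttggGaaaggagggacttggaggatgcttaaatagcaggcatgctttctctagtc
The lines are equal at 92.5% of positions, and the 50 bases next to the start are identical.

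Lalba, the lysozyme relative that became a milk protein and a part of lactose synthase, rose 1.36-fold (log2 0.45 ± 0.09 SE, adjusted p = 0.00662). It read 62482.0 and 129061.0 in null pools, against 42859.6 and 101093.0 in wild-type pools. The signals of the genotypes overlap across sets, and the null pool was higher within each set. Of 3 genes of the lysozyme family tested it was the 1 that passed. Macrophage markers, which move with a known source of lysozyme, had 2 of 10 higher (C1qb and Mrc1) and 1 lower (Cd14). Their summed signal was 190544 and 207636 in null pools and 184562 and 203234 in wild-type pools, and their part in the lysozyme signals was not tested. Markers of secretory alveolar cells, the milk-producing cells that make Lalba, had 1 of 7 higher (Lalba itself) and 2 lower (Wap and Btn1a1).

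Ltf, lactoferrin, was abundant and differed little. It read 72623.6 and 98040.1 in null pools and 63376.4 and 81354.5 in wild-type pools, or 85331.8 ± 17972.2 and 72365.4 ± 12712.4 (SD, n = 2 each). Genotypes overlapped, although the null pool was higher within each set, by ratios of 1.15 and 1.21. Chil1, the chitinase-like protein YKL-40 or BRP-39 that binds chitin without cutting it, read 68384.1 and 80784.4 in null pools and 85246.5 and 87442.1 in wild-type pools. Its null signals were both lower, with ratios of 0.802 and 0.924, a gap between genotypes smaller than that between the 2 null pools.

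Relatives of both genes were tested as lists, beside a background of 7.30% called. Among 5 iron carriers tested, Tfrc, the transferrin receptor gene, rose 1.28-fold (adjusted p = 0.0326), with its other probe set at -0.11. Meltf, melanotransferrin, fell by 0.47 on the log2 scale (SE 0.11, adjusted p = 0.0160). Fth1, the ferritin heavy chain, had a log2 ratio of -0.10 and did not pass. Among 3 chitinase family genes tested, Chit1, an active chitinase of macrophages, had a log2 ratio of 0.75 ± 0.27 (adjusted p = 0.116) and Chid1 one of 0.39 (adjusted p = 0.114), and neither passed. The other tested probe set of Chid1 stood at 0.01.

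Lpo, lactoperoxidase, read 178.4 and 784.3 in null pools and 343.7 and 505.6 in wild-type pools. Its 1 signal above the unspecific level was in the null pool of set 2, and the genotypes had opposite order in the 2 sets, so no direction could be read. The hydrogen peroxide that such peroxidases use comes from dual oxidases. Duoxa1, their maturation factor, read 548.1 and 234.9 in null pools, against 5279.9 and 4972.3 in wild-type pools. The fitted log2 ratio of null over wild type was -3.67 ± 0.25 (SE, limma adjusted p = 5.30e-07). Both null signals lie within the unspecific level, so the fold is a bound: wild type was at least 8.22-fold higher than that level. The bound itself was not tested. Duox1 read 308.5 and 527.2 in null pools and 763.5 and 990.6 in wild-type pools and did not pass (log2 -1.03 ± 0.37, adjusted p = 0.115). Its null signals also lie within the unspecific level, which limits that ratio. Pxdn, a matrix peroxidase, had a log2 ratio of -0.02 ± 0.09 (SE) and did not pass, and Duoxa1 was the 1 of 3 genes tested in this list that did.

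**Figure D3:**
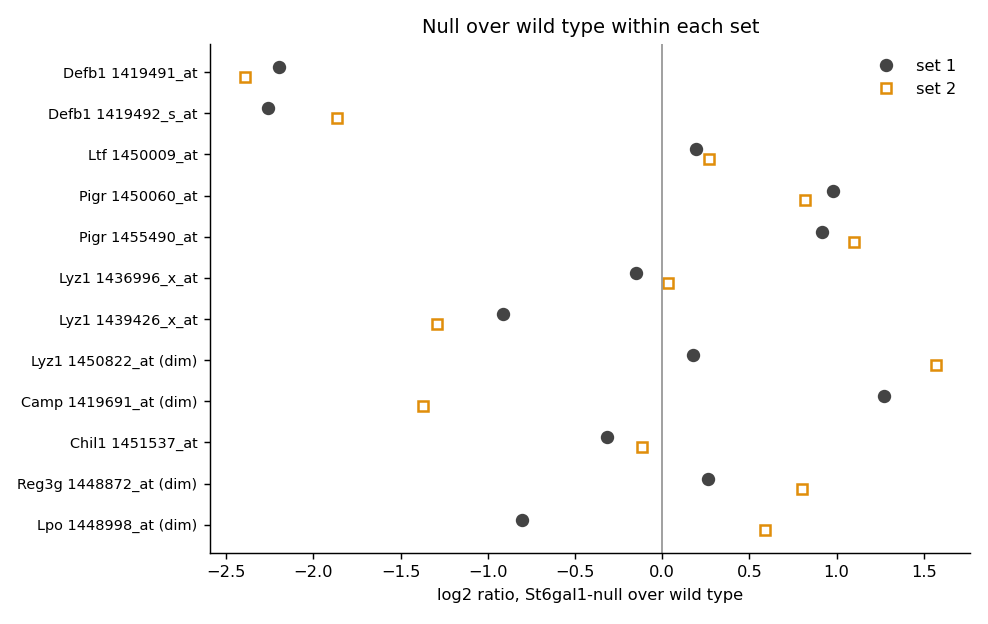
Log2 ratio of null over wild type within set 1 (filled circles) and set 2 (open squares) for each of the 12 probe sets; "dim" marks the 4 below the filter. Both sets lie near -2 for both Defb1 probe sets and near 1 for both Pigr probe sets, whereas Camp and Lpo lie on opposite sides of 0.

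Of the 8 probe sets that passed the filter, 3 were higher in null pools in both sets, 4 were lower in both and 1, the brightest of Lyz1, changed side. After quantile or cyclic loess normalization all 8 kept 1 direction. Signals did not overlap for 2 that were higher and 4 that were lower in null pools. Over all probe sets tested, 15.1% had null signals all above and 16.9% all below the wild-type signals, and 63.3% kept 1 direction in both sets. Because these genes were named with the contrast known, nothing is read from the counts against those shares.

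Other secreted defence proteins of epithelium were examined as a list of related genes. Of 32 on the array 17 were tested, of which 1 rose and 4 fell, with a median log2 ratio of -0.15. Slpi, a protease inhibitor with antibacterial activity, read 14392.0 and 14902.9 in null pools, against 43423.4 and 47368.1 in wild-type pools, and fell by 1.63 (SE 0.08, adjusted p = 4.53e-08). Wfdc12, of the same domain family, fell by 1.25 (SE 0.12), Cst3, the protease inhibitor cystatin C, by 0.57 (SE 0.09) and Dmbt1, a bacteria-binding scavenger protein, by 0.38 (SE 0.09). Retnla, a resistin-like protein of fat and activated macrophages, read 31024.4 and 40378.6 in null pools, against 12623.9 and 17261.5 in wild-type pools, a 2.39-fold rise (adjusted p = 3.75e-07). The mucins Muc1, Muc15 and Muc20 did not pass, with log2 ratios of -0.24, -0.15 and -0.04. Lcn2, the siderophore-binding lipocalin, is counted in the neutrophil list below instead and did not pass there, at -0.03. Among the unpassed genes of the 17 with one direction in both sets, the largest ratios were those of Wfdc3 (0.54 ± 0.22), Lbp (-0.32 ± 0.10), Ang (0.26 ± 0.12) and Rnase4 (-0.25 ± 0.09).

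Neutrophil granule and S100 genes were included because they mark a second source of lactoferrin and cathelicidin. Their calls stand beside a background of 7.30% called. Of 7 tested, S100a8, a calcium-binding alarmin, fell by 1.86 (SE 0.08) and Cd177, a neutrophil surface protein, by 1.03 (SE 0.29, adjusted p = 0.0476, and 0.0599 after quantile normalization), while Pglyrp1, a peptidoglycan-binding protein, rose by 0.71 (SE 0.14). Prtn3, a granule protease, read 2173.0 and 2234.9 in null pools and 1313.7 and 1636.8 in wild-type pools and did not pass (log2 0.57 ± 0.19, adjusted p = 0.0911). Nor did the gelatinase gene Mmp9 (-0.58 ± 0.38) and the receptor gene Csf3r (-0.19 ± 0.33). Both null signals of Mmp9 (583.0 and 368.7) lay within the unspecific level. S100a8 read 9955.8 and 8817.6 in null pools, against 35879.2 and 32529.9 in wild-type pools. S100a9, of the same list, read below the unspecific level on every array, at most 312.0 (null pool of set 2). It was not tested, so the fall of S100a8 has no counterpart in S100a9 here. For Cd177, 1 of the 2 null signals (580.2 and 670.6) lay within the unspecific level. The summed signal of the list was 198589 and 251400 in null pools and 246979 and 256057 in wild-type pools. Most of it came from Lcn2 alone, at 178593 and 230936 in null pools and 202407 and 213279 in wild-type pools. The sum therefore says little on the other genes of the list. The part of neutrophils in the signals of Ltf was not tested.

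Among receptors and regulators of the epithelial defence response, of 20 tested, Spdef, a transcription factor of secretory epithelium, rose 1.58-fold (adjusted p = 0.00524) and Stat3 fell by 0.49 (SE 0.11, adjusted p = 0.0106). The other probe sets of Stat3 ranged from -0.28 to -0.13. Receptors Il17ra, Il17rc, Tlr2 and Tlr4 had log2 ratios of 0.06, -0.31, -0.14 and -0.11 and did not pass. Nfkbiz, an inhibitor-family protein that drives many antimicrobial genes, had -0.42 ± 0.14 (adjusted p = 0.1), with its 2 other tested probe sets at -0.15 and 0.19. The epithelial factor Elf3 (0.42 ± 0.14) and the interleukin-6 receptor chains Il6ra (-0.33 ± 0.28) and Il6st (-0.31 ± 0.09) did not pass either. Other tested probe sets stood at -0.39 for Il6ra and at -0.04 and 0.22 for Il6st.

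Across all 10 lists, 67 related genes were tested, of which 6 rose and 12 fell. All 18 kept their direction in both sets. Nothing is read from this, because the call itself favours genes whose ratios within the sets agree. The median log2 ratio of the 67 genes was -0.10. These calls rest on the set as a term and on the intensity trend: limma called 0 of the 67 without the set term (14 at an unadjusted p under 0.05) and 0 without the trend (22 at an unadjusted p under 0.05). Of 9 basal and myoepithelial markers tested 4 fell over the same pools (Mylk, Oxtr, Myh11 and Krt5) and 5 did not pass, among them Krt17 at 0.47 and Krt14 at -0.36. The list had summed signals of 115486 and 134537 in null pools and 149309 and 165103 in wild-type pools. Luminal markers had 3 of 9 higher (Prom1, Cldn4 and Krt19), with sums of 476942 and 498684 in null pools and 437087 and 413216 in wild-type pools. The part of these cell types in the members' signals was not tested.

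**Figure D4:**
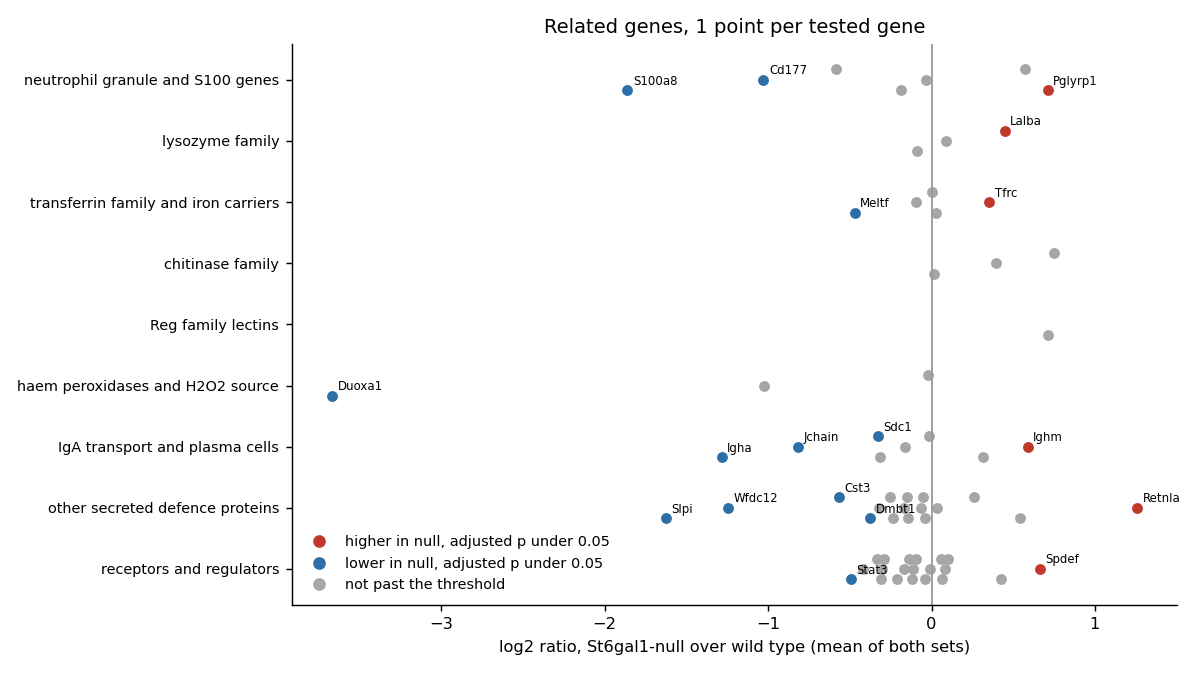
Log2 ratio of null over wild type (mean of both sets) for each tested gene of the related lists, 1 point per gene. Red points rose and blue points fell at limma adjusted p under 0.05, grey points did not pass; Duoxa1, S100a8 and Slpi lie farthest to the left and Retnla farthest to the right.

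Differences between the sets, a contrast other than genotype, were tested for the 8 probe sets that passed the filter. The signals on the arrays were known when the genes were named, and Defb1 passed the filter only through its wild-type pools. Limma called 3 higher and 1 lower in set 2, where 23.6% of all probe sets tested were called (11.1% higher and 12.5% lower). Ltf rose by 0.40 ± 0.09 (log2 ± SE, adjusted p = 0.00483), which is 1.32-fold, with 98040.1 over 72623.6 in null pools and 81354.5 over 63376.4 in wild-type pools. Lyz1 rose by 0.31 ± 0.09 on 1436996_x_at (adjusted p = 0.0240), a call lost when dim probe sets were kept in the fit (adjusted p = 0.0677). Both Defb1 probe sets (0.45 ± 0.30 and 0.23 ± 0.34), 1439426_x_at of Lyz1 (0.11 ± 0.10) and Chil1 (0.14 ± 0.09) did not pass.

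The probe sets of Pigr moved in opposite directions between the sets. In set 2, 1455490_at rose by 0.62 ± 0.09 (adjusted p = 2.66e-04) whereas 1450060_at fell by 0.36 ± 0.10 (adjusted p = 0.0204). Their ratio within an array was 1.29 in set 1 and 2.88 in set 2 for null pools, against 1.35 and 2.37 for wild-type pools. The Gapdh 3'/5' ratio was also higher on both arrays of set 2, and its part in this shift was not tested. The level of Pigr between sets therefore depends on the probe set, while the gap between genotypes within a set was of like size on both.

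**Figure D5:**
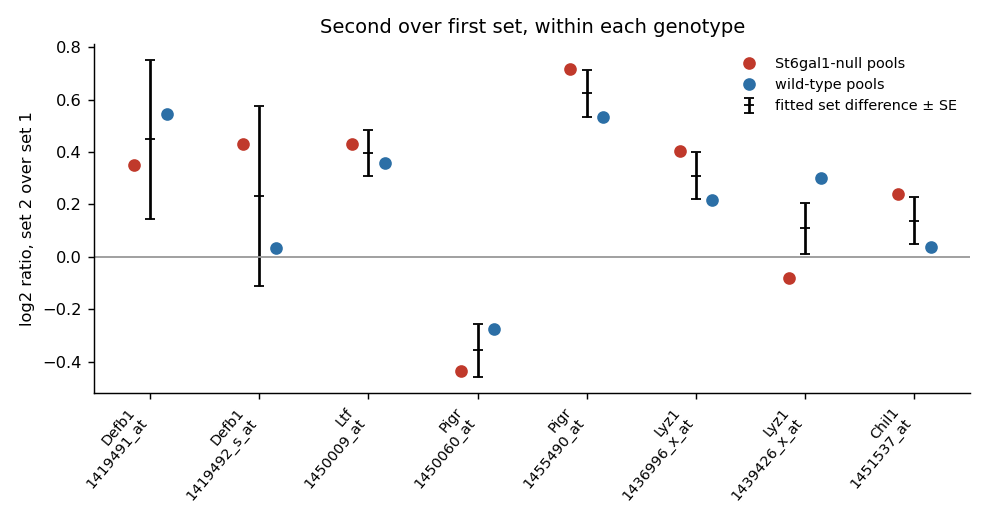
Log2 ratio of set 2 over set 1 in null pools (red, left) and wild-type pools (blue, right) for the 8 tested probe sets, with the fitted difference and its SE in black. The Pigr probe sets lie on opposite sides of 0, and Ltf lies above 0 in both genotypes.

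Patterns over the 4 arrays were compared by the root mean square distance between log2 signals centred per probe set, over 11513 other genes and 4 arrays. Nearest to Defb1 were Kcnq1 (distance 0.107), Wif1 (0.322) and BC023105 (0.357). Kcnq1, a potassium channel gene, read 137.4 and 235.0 in null pools, against 948.5 and 1312.5 in wild-type pools, and so was also within the unspecific level in both null pools. Nearest to Pigr (1455490_at) were Pdgfra (0.0714), Car6 (0.0718) and Ppic (0.0860). Car6, a carbonic anhydrase secreted into saliva and milk, read 43290.1 and 62094.0 in null pools, against 21998.4 and 30701.5 in wild-type pools. It belongs to the salivary gland markers, of which 3 of 6 tested rose (Car6, Prol1 and Aqp5) and 0 fell, beside a background of 7.30% called. The other probe set of Prol1 went the opposite way, at -0.41 against 1.16 on the brightest. Their summed signal was 109866 and 148020 in null pools, against 75982 and 95930 in wild-type pools, most of it from Car6 and Aqp5. Of 9 salivary genes on the array, Smgc, Dcpp1 and Bpifa2 read at or below the unspecific level on all arrays, and Car6, Aqp5, Prol1, Klk1 and Egf above it on all arrays. Amy1, a salivary amylase, read above it in null pools alone, at 721.9 and 1013.3 against 477.3 and 419.3 in wild-type pools, and did not pass (log2 0.87 ± 0.36, adjusted p = 0.184). The part of salivary tissue in the signal of Pigr was not tested.

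For members with flatter patterns the nearest genes lay closer: Ltf had Rbm33, Snrpb and Phgdh within 0.0101, Chil1 had D10Wsu102e, Nsd1 and Plce1 within 0.0125, and the brightest Lyz1 probe set had Marveld1, Cant1 and Hnrnpa0 within 0.0129. Among members, Lyz1 and Chil1 (0.116) and Ltf and Lyz1 (0.155) lay closest, and Defb1 and Pigr (1.66) farthest apart. With 4 arrays such distances describe these pools only.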

How the data were processed

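The authors deposited linear intensity values of probe sets, 1 array per pool, made with MAS5 per the submitters' processing notes. MAS5 gives every probe set 1 signal and brings the arrays to a common mean, so no further scaling was applied. Its version and any detection calls are not given in the sources used here. Of 45101 probe sets 64 controls were left out. The annotation gave 1 symbol for 34945, several for 932 and none for 9160, and 0 columns stayed unmapped. The reference table (GRCm38.p6) gave positions and promoters only, since the files name no build.

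Intensities became log2(value + 43.9), the 10th percentile of all values, a scale that understates changes of dim genes. The 22519 probe sets whose mean reached the median were fitted with limma 3.58.1 (lmFit, eBayes with an intensity trend; R 4.3.3), set and genotype as terms, with Benjamini-Hochberg adjustment over all of them and a threshold of 0.05. Sets entered as a block, since the design text couples the pools in this way. Pools of one set shared their departure from the genotype means (correlation 0.605, which 2 sets must have in common). There was 1 residual degree of freedom, beside 13 prior ones that limma drew from the intensity trend over all probe sets tested. Pools were counted as replicates. With the set as a term, p-values rest on the disagreement of the 2 within-set ratios, moderated by that trend. They do not measure the spread between animals. An exact permutation of 2 against 2 pools that ignores the sets cannot go below a two-sided p of 0.333. Permutation within sets allows fewer arrangements still.

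Members and lists were chosen with earlier results of these data known. Every member probe set is named, and for related genes (brightest probe set each) all past the threshold and up to 4 others per list with the largest change of 1 direction in both sets; marker genes past the threshold are named, and further unpassed genes given as examples were chosen after their values were seen. The use of the highest Y-linked signal as a bound follows the female sex of the animals.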

Additional observations from a re-analysis of the deposited data

Results flagged for a closer look

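Within sets 1 and 2 the log2 ratio of null over wild type had opposite signs for 3 member probe sets, a difference that was not tested because each set holds 1 pool per genotype. Camp was at 1.27 in set 1 and -1.37 in set 2, with every signal within the unspecific level. Lpo was at -0.80 in set 1 and 0.59 in set 2, with 1 of 4 signals above that level. The brightest Lyz1 probe set, 1436996_x_at, was at -0.15 in set 1 and 0.0345 in set 2, while after quantile or cyclic loess normalization all 8 tested probe sets kept 1 direction in both sets.

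Between the sets, null and wild-type pools moved in opposite directions for 3 member probe sets, also not tested. The log2 ratio of set 2 over set 1 was -0.62 in null and 2.02 in wild-type pools for Camp. It was -0.0816 in null and 0.30 in wild-type pools for 1439426_x_at of Lyz1, and 0.34 in null and -1.05 in wild-type pools for 1450822_at, the dim probe set of Lyz1.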

How the results depend on the processing

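Quantile and cyclic loess normalization, other pseudocounts (16 and 200) and other filters (none, or the 75th percentile) kept the counts of calls within 1.5 times: from 1345 to 1837 against 1645 over all probe sets, from 15 to 20 against 18 related genes, and 3 or 4 against 4 member probe sets between sets. Cd177, Jchain and Sdc1 lost their call in some of these (Cd177 with an adjusted p up to 0.110, Jchain up to 0.0637, Sdc1 0.0572). Without the intensity trend 0 probe sets passed in limma, where 3486 had p under 0.05 unadjusted, nor did any related gene (22 unadjusted), and 0 members passed between sets (3 unadjusted). With no replicate block, that is without the set, 0 probe sets (1280 unadjusted) and 0 related genes (14 unadjusted) passed, and with the set as the only term 0 members between sets (2). With 1 pool left out and no replicate block, 4, 8, 19 or 27 probe sets and from 0 to 3 related genes were called, the lone pool being assumed to vary like the other group. There Lalba turned to -0.17 without wild type replicate 1 and -0.0752 without null replicate 2, and Stat3 to 0.24 and 0.49; both genes differed more between sets than between genotypes. Camp turned to 0.015 with a pseudocount of 16 and to 1.27 in set 1 alone, and in set 2 alone Lyz1 1436996_x_at turned to 0.0345 and Lpo to 0.59. The dim Lyz1 probe set gave 0.87 where the brightest gave -0.06. With a pseudocount of 200 the mean log2 ratios of Defb1 shrank to -1.92 on 1419491_at and -1.67 on 1419492_s_at, against -2.30 and -2.06. The cause of the other changes was not tested. Signals within the unspecific level limit Camp, Reg3g, Lpo and the null values of Defb1.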
